A study of Mus musculus with 6 samples.

Results

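The genes of glycolysis and of the cellular response to low oxygen were examined as 1 set of 36 genes in cultured primary Schwann cells (SCs), the glial cells of peripheral nerves, that had or lacked the axon guidance receptor Plexin-B1. The members were chosen by name out of the 55401 genes in the count table. They comprised 18 enzymes of glycolysis and lactate formation, 4 transporters of glucose or lactate, 4 genes of the hypoxia-inducible factor (HIF) system and 10 further HIF target genes. All 36 passed the filter on low counts, under which a gene needed 2 or more counts in 5 or more of 6 libraries, and 22318 genes were tested.

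SCs of adult mice were cultured from the dorsal root ganglia and profiled by bulk RNA-seq in 6 cultures, 3 wild type (WT) and 3 Plxnb1-/-. The Plxnb1-/- mice carried the targeted Plxnb1 allele known as tm1Matl, a gene trap with a transmembrane domain, lacZ and neo, and were kept on a C57BL/6 background. The mutation was constitutive, and the labels name no injury or treatment besides the culture. Heterozygous littermates served as controls beside WT in the study at large, and the labels of these 3 control libraries read WT. Both genotypes were grown in high-glucose medium with serum, forskolin, neuregulin and ascorbic acid, and fibroblasts had been depleted with an antibody to Thy1. The oxygen tension of the cultures was not given in the sources used here. The labels number the replicates without saying whether these came from separate mice, so p-values measure only the spread between these cultures, which may be technical.

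Glycolysis splits glucose into pyruvate in the cytosol, and lactate dehydrogenase then turns pyruvate into lactate or back. SCs are known to take up glucose and to pass lactate to the axons they accompany. HIF proteins are made at all times, but in the presence of oxygen prolyl hydroxylases mark them for destruction. When oxygen is low they accumulate, pair with ARNT and bind short DNA elements with the core ACGTG or GCGTG, and many genes of glycolysis are among their targets, so that a change in HIF activity need not appear in the mRNA of the factors themselves.

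Library totals lay between 59252048 and 77280964 counts, so that 3 counts corresponded to 0.0383 to 0.0513 CPM (counts scaled to a common library total). Plxnb1 itself stood at 61.8, 45.4 and 96.4 CPM in the WT cultures and at 13.1, 16.6 and 18.6 CPM in the Plxnb1-/- cultures. The log2 fold change was -2.08 (SE 0.25, adjusted p = 0.0449 by edgeR's quasi-likelihood test). According to the paper's RNA-seq tracks, the exons beyond the inserted trap cassette lost expression, whereas the counts used here cover all annotated exons of the gene. The 10 SC markers examined were all present, with a summed level of 2480 to 2960 CPM in WT and 2989 to 3435 CPM in Plxnb1-/- cultures. The 7 fibroblast markers were also all present, at 12533 to 15160 CPM in WT and 11466 to 11929 CPM in Plxnb1-/-, and most of this sum came from the collagen genes Col1a1 and Col1a2. According to the paper, staining of its primary SC cultures for SC markers showed high purity. Its methods state only a lower bound for the purity of the cells used, so cells of other types may have been present. The paper also names Col1a1 among the extracellular matrix genes reduced in Plxnb1-/- SCs. Thy1 was still read at 384 to 652 CPM. Summed markers of neurons (6 genes, 141 to 156 CPM in WT and 158 to 175 CPM in Plxnb1-/-), macrophages (6 genes, 25.5 to 28.7 and 29.7 to 33.4 CPM) and endothelial cells (5 genes, 57.5 to 77.3 and 60.0 to 65.7 CPM) were far lower. The neuronal gene Isl1 and the endothelial gene Cldn5 stayed below 0.5 CPM in every culture. Thus the SC, neuron and macrophage sums were higher and the fibroblast sum lower in all 3 Plxnb1-/- cultures than in any WT culture, and the part of these shifts in the results that follow was not tested. In bulk RNA, fewer cells of a type and less RNA per cell cannot be told apart.

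To compare genes with each other, levels were expressed as CPM per kb of annotated exon, here as the mean of the 3 WT cultures. The length counts every annotated exon base of a gene, such as 2911 for Aldoa and 13401 for Pfkp. Which of these exons the cells used was not examined, so the order of genes depends on the annotation. Aldoa, the aldolase that splits the 6-carbon sugar, stood highest at 227 ± 8.30 CPM per kb (SD, n = 3), next to Pkm, the pyruvate kinase of the last step, at 222 ± 12.5 CPM per kb. Pgk1, the first enzyme to yield ATP, followed at 176 ± 6.76 CPM per kb and Ldha, the lactate-forming dehydrogenase subunit, at 156 ± 11.9 CPM per kb. Aldoa and Pkm did not differ beyond their spread. Pgam1 (108 ± 4.21), Eno1 (103 ± 10.7), Tpi1 (98.5 ± 5.50) and Ldhb (97.5 ± 6.33 CPM per kb) formed the next group, and their levels likewise overlapped. The enzymes of the upper, regulated steps were less abundant per kb. Hexokinases Hk1 and Hk2, which trap glucose in the cell, stood at 21.6 ± 0.940 and 20.9 ± 3.51 CPM per kb. The 3 phosphofructokinase genes Pfkl, Pfkm and Pfkp stood at 12.0, 11.3 and 9.72 CPM per kb. Without scaling by length Pfkp led these 3, at 130 CPM against 80.2 CPM for Pfkl and 37.7 CPM for Pfkm.

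**Figure D1:**
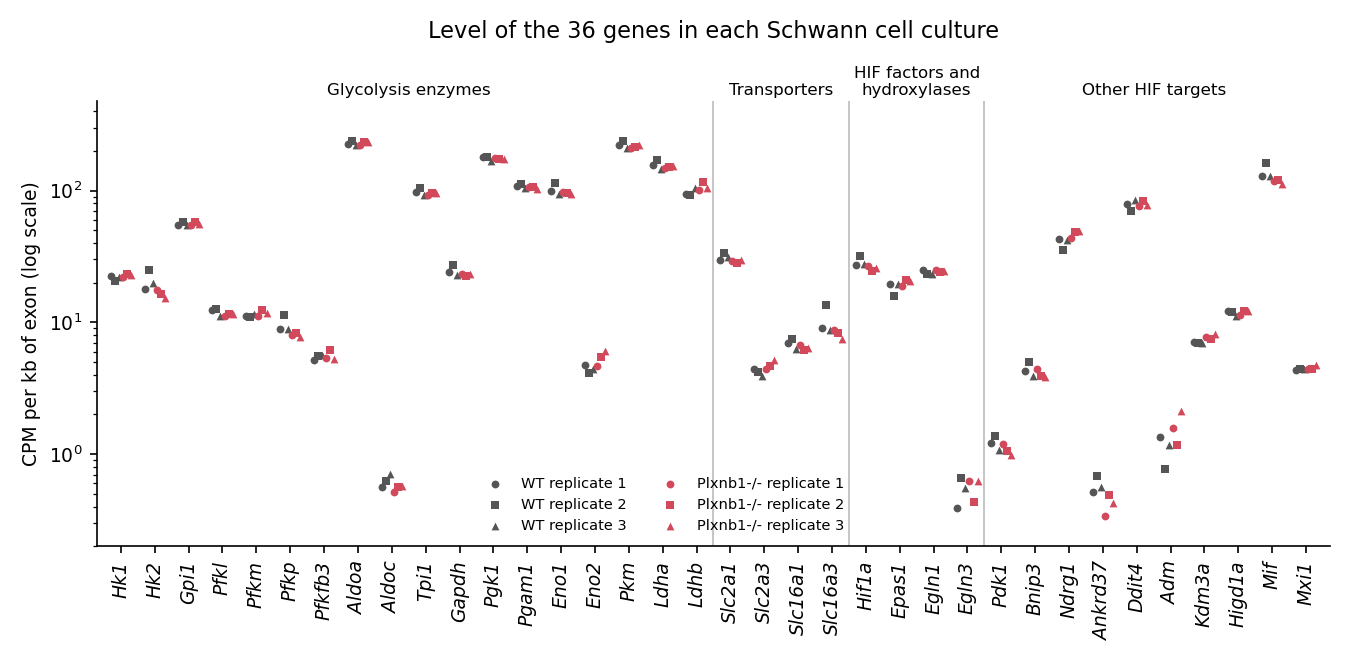
Level of each gene in each culture, in CPM per kb of annotated exon on a log axis, with genes ordered by role. WT cultures are grey and Plxnb1-/- cultures red, with 1 symbol shape per replicate number. The core enzymes from Aldoa (227 CPM per kb in WT) to Ldha (156 CPM per kb) sit highest, and Aldoc, Egln3 and Ankrd37 lie below 1 CPM per kb in every culture.

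Isoforms of the same step differed widely in level. Aldoc, an aldolase best known from brain, was read at 0.631 CPM per kb, far under Aldoa, and Eno2, the neuronal enolase, at 4.46 CPM per kb, far under Eno1. By contrast Hk1 and Hk2 were near equal per kb. Without scaling by length Hk1 was higher, at 184 CPM over 8532 exon bases against 125 CPM over 5969 for Hk2. Among the transporters, Slc2a1, which encodes the glucose carrier GLUT1, led with 31.5 CPM per kb in WT cultures. The neuronal glucose carrier Slc2a3 (GLUT3) stood at 4.19 CPM per kb, and the lactate carriers Slc16a1 (MCT1) and Slc16a3 (MCT4) at 6.87 and 10.4 CPM per kb. Hif1a was read at 28.8 CPM per kb and Epas1, which encodes HIF-2alpha, at 18.4 CPM per kb. Of the hydroxylases, Egln1 (PHD2) stood at 23.8 CPM per kb and the HIF-induced Egln3 (PHD3) at 0.531 CPM per kb.

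The level of Gapdh in particular is uncertain for a further reason besides exon length. Gapdh, the glyceraldehyde phosphate dehydrogenase often used as a reference gene, was read at 24.7 CPM per kb, well below its neighbours in the pathway. The annotation held 184 near-identical copies of Gapdh elsewhere in the genome, and the counts assigned to those copies equalled 65.1% to 70.2% of the counts assigned to Gapdh in the same library. For the other 16 members with such copies, the copies held at most 3.17% of the member's own counts. Adding the copies' counts to the members moved no log2 fold change by more than 0.01. Reads that match several places equally well could be lost or split in the authors' counting, so the level of Gapdh per kb is not comparable with that of the other enzymes. Pgk1 and Pgam1 also have copies of 100% identity, and Eno1 has one of 99.62%. Counts assigned to copies do not show lost reads, so the levels of these 3 genes per kb may be too low as well.

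RefSeq promoter sequences of the GRCm38.p6 build, each from 250 bases before to 50 bases after a start site, were given for 33 of the 36 members. There was no entry for Slc2a3, Ndrg1 and Epas1. The HIF core ACGTG or GCGTG was found on either strand in at least 1 promoter window of 30 of the 33 members, or 90.9%, against 46.7% of all 27025 genes with such a sequence. Eno2, Gpi1 and Tpi1 had no match in their windows. Counted over windows of this length, 78.0% of the 50 windows of members and 43.8% of all windows held a match. The longer palindrome CACGTG, which contains ACGTG on both strands and is also the E-box bound by other factors, was found in 18.2% of the members and 8.09% of all genes. These matches describe the letters only, and many of the members are known HIF targets.

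A stretch of 250 bases upstream of a start site is shown for 5 members that overlap no annotated exon there. Ldha and Pgk1 were taken as abundant enzymes with log2 fold changes near 0. Hk2, Hif1a and Mif were taken as genes that read lower in every Plxnb1-/- culture. Each is written 5′ to 3′ on the strand of the gene, with capitals marking each ACGTG or GCGTG on either strand (ACGTG reads CACGT from the other side). Ldha lies at chr7:46845554-46845803 on the plus strand, Pgk1 at chrX:106186850-106187099 on the plus strand, Hk2 at chr6:82774455-82774704 on the minus strand, Hif1a at chr12:73907617-73907866 on the plus strand and Mif at chr10:75860278-75860527 on the minus strand.
Ldha: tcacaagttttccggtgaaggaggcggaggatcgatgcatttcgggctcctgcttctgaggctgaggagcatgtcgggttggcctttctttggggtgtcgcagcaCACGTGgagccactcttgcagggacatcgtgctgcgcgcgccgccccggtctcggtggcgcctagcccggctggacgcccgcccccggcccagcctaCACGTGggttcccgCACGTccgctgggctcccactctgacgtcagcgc
Pgk1: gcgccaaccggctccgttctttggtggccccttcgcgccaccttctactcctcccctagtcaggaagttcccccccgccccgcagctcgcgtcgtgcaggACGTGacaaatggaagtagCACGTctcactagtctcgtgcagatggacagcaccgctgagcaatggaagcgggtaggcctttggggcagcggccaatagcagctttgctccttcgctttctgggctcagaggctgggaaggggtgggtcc
Hk2: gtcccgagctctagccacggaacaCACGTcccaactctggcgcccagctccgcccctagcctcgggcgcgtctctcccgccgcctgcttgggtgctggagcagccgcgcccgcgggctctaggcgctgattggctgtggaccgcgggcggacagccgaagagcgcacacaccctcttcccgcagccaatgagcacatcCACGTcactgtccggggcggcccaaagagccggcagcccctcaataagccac
Hif1a: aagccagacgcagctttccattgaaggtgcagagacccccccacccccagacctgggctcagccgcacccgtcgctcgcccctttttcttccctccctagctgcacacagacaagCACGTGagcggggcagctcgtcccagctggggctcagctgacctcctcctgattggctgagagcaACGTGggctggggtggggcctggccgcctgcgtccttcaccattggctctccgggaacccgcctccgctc
Mif: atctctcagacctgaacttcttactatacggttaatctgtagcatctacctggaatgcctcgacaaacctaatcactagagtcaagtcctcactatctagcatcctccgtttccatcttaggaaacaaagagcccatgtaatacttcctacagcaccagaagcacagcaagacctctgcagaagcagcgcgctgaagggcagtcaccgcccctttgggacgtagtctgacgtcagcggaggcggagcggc
A further Ldha start site, with the stretch chr7:46846832-46847081, also overlaps no annotated exon and is not shown. It holds 1 match, a GCGTG. Counting each strand, the Ldha stretch shown holds 5 matches, 4 of them in 2 copies of CACGTG. Hif1a holds 3, Pgk1 and Hk2 hold 2 each, and Mif holds none upstream of its start and 1 in the 50 bases after it. These 5 were picked for display, so their matches are no comparison between groups of genes.

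The comparison of the genotypes asked whether loss of Plexin-B1 changed the mRNA of these genes in SCs. None of the 36 members passed the call, which was an adjusted p below 0.05 with a log2 fold change beyond 0.25 in either direction, by edgeR. Over all tested genes edgeR called 0.0358%. DESeq2 called none of them either, against 1.50% of all genes. Ankrd37, whose counts are low, was given no adjusted p by DESeq2. Adjusted p-values over all tested genes ran from 0.273 for Kdm3a to 0.998 for Pgk1 by edgeR, and the lowest by DESeq2 was 0.0592 for Hk2. At an unadjusted p below 0.05 edgeR counted 10 members, 4 higher and 6 lower in Plxnb1-/-, which is 27.8% of the set against 13.7% of all genes (6.95% higher and 6.78% lower). In 10 members (27.8%) the 3 Plxnb1-/- cultures lay wholly above or wholly below the 3 WT cultures, as they did in 19.7% of all genes. Of these 10 members, 4 were higher (11.1%, against 9.30% of all genes) and 6 lower (16.7%, against 10.4%).

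The set had no common direction. Of its 36 log2 fold changes 18 were above and 18 below 0, with a median of -0.02, and the median over all tested genes was 0.00. The spread is given for the enzymes and the other members apart, and the difference between them was not tested. The median absolute log2 fold change was 0.06 in the 18 enzymes, 0.14 in the 18 other members and 0.12 in all tested genes. Among the enzymes 12 of 18 (66.7%) lay within 0.1 of 0, compared with 6 of the 18 other members (33.3%) and 44.6% of all genes. Cultures of the genotypes did not overlap in 2 of 18 enzymes (11.1%) and in 8 of 18 other members (44.4%), beside 19.7% of all genes.

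**Figure D2:**
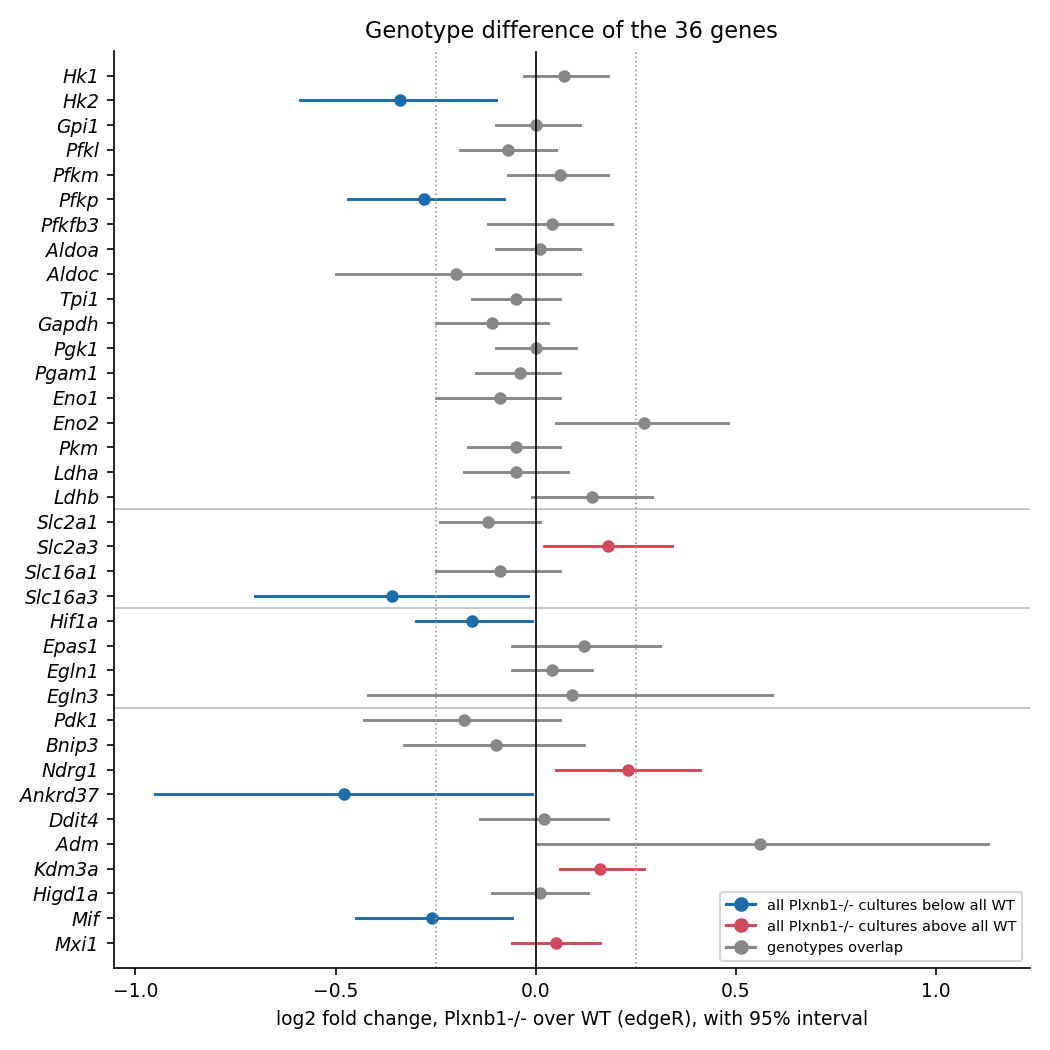
Log2 fold change of each gene, Plxnb1-/- over WT, from edgeR with its 95% interval, in order of role. Dotted lines mark the log2 fold change of 0.25 in either direction used in the call, and colours mark the 10 genes whose genotypes did not overlap. Most enzymes sit within 0.1 of 0 with short intervals, and Hk2, Pfkp and Eno2 are the enzymes farthest from 0.

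Along the pathway, the main trunk enzymes Pkm, Aldoa and Pgk1 were nearly level between genotypes. Pkm was read at 1099, 1179 and 1056 CPM in WT cultures and at 1052, 1067 and 1099 CPM in Plxnb1-/- cultures. Aldoa was read at 654, 688 and 641 CPM in WT and at 641, 675 and 676 CPM in Plxnb1-/-. Pgk1 was read at 403, 402 and 377 CPM in WT and at 399, 391 and 393 CPM in Plxnb1-/-. For each of these 3 genes the Plxnb1-/- values fell inside or at the edge of the WT range. The log2 fold change was -0.05 for Pkm (95% interval -0.17 to 0.06), 0.01 for Aldoa (-0.10 to 0.11) and 0.00 for Pgk1 (-0.10 to 0.10), so that a change of 0.25 lay outside each interval.

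The same held for most other trunk enzymes. Log2 fold changes were 0.00 for the isomerase Gpi1, -0.05 for the triose isomerase Tpi1, -0.04 for the mutase Pgam1, -0.09 for the enolase Eno1 and -0.05 for Ldha. Gapdh, with its uncertain level, gave -0.11 (95% interval -0.25 to 0.03). Over all 18 enzymes the 95% interval lay wholly within 0.25 of 0 in 11. Summed over the 18 enzymes, the level was 4893, 5241 and 4738 CPM in WT cultures and 4760, 4871 and 4843 CPM in Plxnb1-/- cultures. The Plxnb1-/- mean differed by -2.68%, all 3 values lay inside the WT range, and without WT replicate 2 the log2 difference was 0.00.

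The 3 enzymes with the largest absolute log2 fold changes were Hk2, Pfkp and Eno2, none of which passed the call. Hk2, the inducible hexokinase that binds mitochondria, was read at 108, 148 and 119 CPM in WT cultures and at 106, 98.3 and 91.0 CPM in Plxnb1-/- cultures. Each Plxnb1-/- culture lay below each WT culture, although the nearest pair was separated by only 1.31% of the WT mean. The log2 fold change of Hk2 was -0.34 (SE 0.11, 95% interval -0.59 to -0.10), with an adjusted p of 0.289 by edgeR and 0.0592 by DESeq2. Hk1, the constitutive hexokinase, was read at 190, 175 and 188 CPM in WT and at 189, 199 and 194 CPM in Plxnb1-/-, with a log2 fold change of 0.07 (95% interval -0.03 to 0.18).

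Phosphofructokinase commits sugar to glycolysis, and its platelet-type gene Pfkp was read at 120, 151 and 120 CPM in WT cultures and at 108, 112 and 103 CPM in Plxnb1-/- cultures. The groups did not overlap, with a gap of 6.28% of the WT mean, and the log2 fold change was -0.28 (SE 0.09, 95% interval -0.47 to -0.08; adjusted p = 0.289 by edgeR). The liver-type Pfkl and the muscle-type Pfkm overlapped between genotypes, with log2 fold changes of -0.07 and 0.06. Pfkfb3, which makes the allosteric activator of phosphofructokinase, also overlapped, with a log2 fold change of 0.04.

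Eno2 was the enzyme with the largest positive value. It was read at 22.5, 19.6 and 20.9 CPM in WT and at 21.8, 25.5 and 28.5 CPM in Plxnb1-/-. The lowest Plxnb1-/- culture lay inside the WT range, and the log2 fold change was 0.27 (SE 0.10, 95% interval 0.05 to 0.48; adjusted p = 0.305 by edgeR). Ldhb, the dehydrogenase subunit that favours pyruvate, was read at 148, 146 and 164 CPM in WT and at 158, 182 and 166 CPM in Plxnb1-/-, with a log2 fold change of 0.14 (95% interval -0.01 to 0.29). Aldoc was read at only 1.69 to 2.30 CPM over the 6 cultures, with a log2 fold change of -0.20 and overlapping groups.

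Of the transporters, Slc16a3, which exports lactate from glycolytic cells, was read at 47.9, 71.9 and 46.6 CPM in WT cultures and at 46.4, 43.8 and 39.5 CPM in Plxnb1-/- cultures. The groups were apart by only 0.280% of the WT mean, and WT replicate 2 stood far above the other 5 cultures. The log2 fold change was -0.36 (SE 0.15, 95% interval -0.70 to -0.02; adjusted p = 0.349 by edgeR) and -0.12 without WT replicate 2. Slc16a1, the other lactate carrier, overlapped between genotypes at 27.6 to 32.9 CPM in WT and 27.5 to 29.9 CPM in Plxnb1-/- (log2 fold change -0.09).

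Neither glucose carrier passed the call. Slc2a1 was read at 103, 118 and 110 CPM in WT and at 103, 98.2 and 104 CPM in Plxnb1-/-, with overlapping groups and a log2 fold change of -0.12 (95% interval -0.24 to 0.01), or -0.06 without WT replicate 2. Slc2a3 was read at 32.0, 30.6 and 28.5 CPM in WT and at 32.1, 33.7 and 37.4 CPM in Plxnb1-/-, with a log2 fold change of 0.18 (SE 0.07, 95% interval 0.02 to 0.34; adjusted p = 0.323 by edgeR). The Slc2a3 groups were separated by 0.359% of the WT mean. The sum of the 4 transporters differed by -8.29% in Plxnb1-/-, at 203 to 212 CPM against 212 to 254 CPM in WT, and -0.04 on the log2 scale without WT replicate 2.

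The HIF genes themselves showed small differences. Hif1a, the oxygen-labile subunit that is present in most cells, was read at 160, 186 and 163 CPM in WT cultures and at 158, 146 and 154 CPM in Plxnb1-/- cultures. It was lower in each Plxnb1-/- culture than in any WT culture, with a gap of 1.03% of the WT mean. The log2 fold change was -0.16 (SE 0.06, 95% interval -0.30 to -0.01; adjusted p = 0.339 by edgeR), and -0.08 without WT replicate 2. Epas1 was read at 110, 89.0 and 109 CPM in WT and at 105, 116 and 114 CPM in Plxnb1-/-, overlapping, with a log2 fold change of 0.12. Egln1, the main oxygen sensor among the hydroxylases, differed by 0.04 (95% interval -0.06 to 0.14). Egln3, at 1.03 to 1.74 CPM, gave 0.09 with an interval of -0.42 to 0.59, too wide at this level to exclude a change of 0.25 either way.

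The 10 further HIF targets gave values on both sides of 0, none of them called. Ndrg1, a stress-induced gene that is abundant in SCs and whose loss causes a demyelinating neuropathy, was read at 285, 232 and 280 CPM in WT cultures and at 290, 317 and 326 CPM in Plxnb1-/- cultures. All Plxnb1-/- cultures lay above all WT cultures, with a log2 fold change of 0.23 (SE 0.08, 95% interval 0.05 to 0.41; adjusted p = 0.296 by edgeR). Kdm3a, a histone H3K9 demethylase, was read at 57.8, 57.4 and 56.9 CPM in WT and at 63.5, 61.8 and 67.4 CPM in Plxnb1-/-. It had the tightest WT values of the set, with a coefficient of variation of 0.833%, and a log2 fold change of 0.16 (SE 0.05, 95% interval 0.06 to 0.27; adjusted p = 0.273 by edgeR). Mxi1, an antagonist of MYC, had groups that did not overlap by only 0.0226% of the WT mean, and its log2 fold change was 0.05.

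Mif, which encodes a small secreted inflammatory cytokine, was read at 95.9, 121 and 95.1 CPM in WT cultures and at 87.6, 89.6 and 84.0 CPM in Plxnb1-/- cultures. The groups did not overlap, and the log2 fold change was -0.26 (SE 0.09, 95% interval -0.45 to -0.06; adjusted p = 0.295 by edgeR). Ankrd37, a small ankyrin-repeat gene often used as a readout of HIF activity, was among the least abundant members, at 0.797, 1.04 and 0.861 CPM in WT and 0.524, 0.759 and 0.649 CPM in Plxnb1-/-. Its log2 fold change was -0.48 (SE 0.21, 95% interval -0.95 to -0.01; adjusted p = 0.357 by edgeR).

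Adm, which encodes the vasodilator peptide adrenomedullin, had the largest fold change of the set and the widest interval. It was read at 2.17, 1.25 and 1.91 CPM in WT and at 2.58, 1.90 and 3.42 CPM in Plxnb1-/-. One Plxnb1-/- culture lay within the WT range, and the log2 fold change was 0.56 (SE 0.25, 95% interval from just under 0.00 to 1.13; adjusted p = 0.365 by edgeR). Pdk1, the kinase that keeps pyruvate out of the mitochondrion, differed by -0.18 and the mitophagy receptor Bnip3 by -0.10, both with overlapping groups. Ddit4, an inhibitor of mTOR signalling, and Higd1a, a mitochondrial protein, differed by 0.02 and 0.01. Summed over the 10 genes the level was 667, 625 and 665 CPM in WT and 662, 703 and 705 CPM in Plxnb1-/-, a mean 5.77% higher. The lowest Plxnb1-/- sum lay inside the WT range. Ndrg1, Ddit4 and Mif made up most of this sum. The mean of Ndrg1 alone was 266 CPM in WT and 311 CPM in Plxnb1-/-, a larger difference than that of the whole sum (652 and 690 CPM). Ddit4 stood at 137 and 139 CPM, and Mif went the other way, at 104 and 87.1 CPM.

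**Figure D3:**
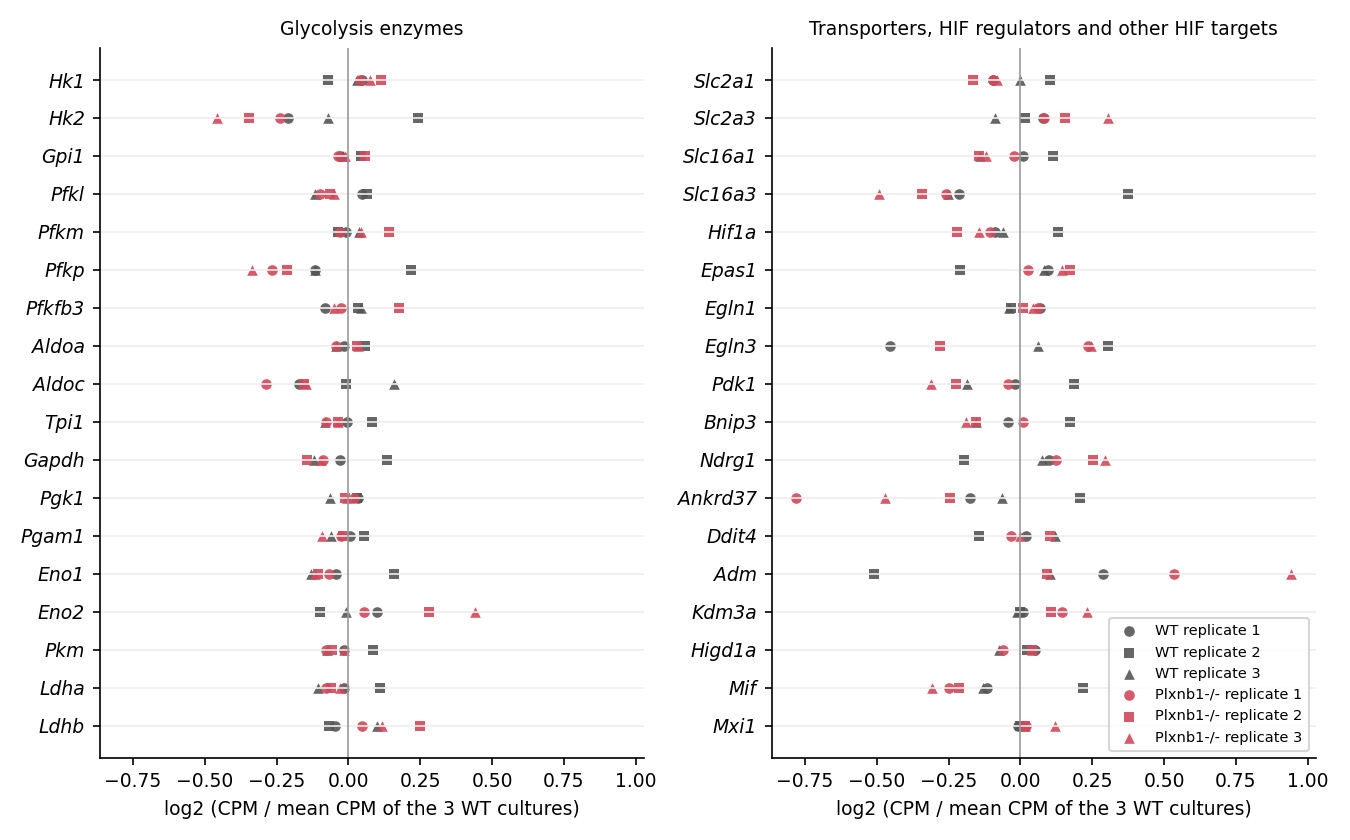
Log2 of the CPM of each culture over the mean CPM of the 3 WT cultures, 1 row per gene, with the enzymes on the left and the other members on the right. WT cultures are grey and Plxnb1-/- cultures red. WT replicate 2 (grey square) is the outermost point on the right in many rows, such as Hk2 (148 CPM), Pfkp (151 CPM) and Slc16a3 (71.9 CPM).

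One WT culture carried much of the spread. WT replicate 2 was the highest of the 6 cultures in 19 of 36 members (52.8%), compared with 25.1% of all tested genes, and the lowest in 8 (22.2%, compared with 27.0% of all genes). It was highest in 10 of the 18 enzymes, among them Aldoa, Pkm and Ldha, and in 9 of the 18 other members. Over the 36 members the coefficient of variation among replicates had a median of 7.25% in WT and 4.30% in Plxnb1-/-. It was larger in WT in 26 of the 36, which was likewise not counted over all genes. The same culture had the highest fibroblast sum (15160 CPM), the lowest SC sum (2480 CPM) and the lowest sum of 6 cell cycle genes, at 866 CPM against 972 to 1283 CPM in the other 5 cultures. Whether these shifts in markers bear on the members was not tested.

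Without WT replicate 2 the difference became smaller in 25 of 36 members, a count that was not made over all genes. The log2 fold change was -0.20 for Hk2, -0.15 for Pfkp, -0.13 for Mif, 0.14 for Ndrg1, 0.37 for Adm and -0.36 for Ankrd37. In contrast it was 0.17 for Kdm3a and 0.19 for Slc2a3, as large as with all cultures. Without WT replicate 2, 25 of 22781 genes (0.110%) were called by edgeR, and no member was among them. Without WT replicate 1, DESeq2 called 4.17% of all genes and 4 members. Of these Hk2 (-0.44, DESeq2 adjusted p = 0.00195), Pfkp (-0.33, adjusted p = 0.0169) and Mif (-0.31, adjusted p = 0.0324) were lower, and Ndrg1 (0.28, adjusted p = 0.0362) was higher. Without Plxnb1-/- replicate 1, DESeq2 called 1.24% of all genes and, of the members, Eno2 (0.36 higher, adjusted p = 0.0230). These calls rest on which single culture is left out.

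**Figure D4:**
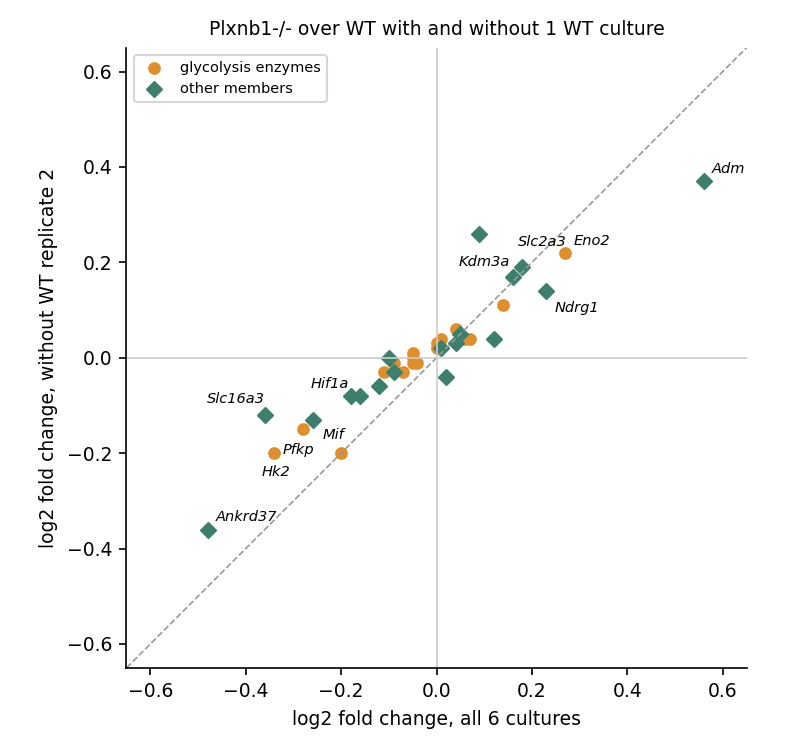
Log2 fold change of each gene with all 6 cultures (horizontal axis) and without WT replicate 2 (vertical axis), with a dashed line where both are equal. Hk2 moves from -0.34 to -0.20 and Slc16a3 from -0.36 to -0.12, whereas Kdm3a and Slc2a3 stay on the line.

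Ratios between paired isoforms do not depend on the library total, and 8 pairs were compared with an exact two-sided permutation test, which with 3 against 3 cultures cannot go below p = 0.1. The ratio of Hk2 to Hk1, taken in CPM per kb, was 0.807, 1.21 and 0.905 in WT cultures. It was 0.803, 0.708 and 0.669 in Plxnb1-/- cultures. The groups did not overlap, and the mean log2 ratio differed by -0.40 in Plxnb1-/- (exact permutation p = 0.1, adjusted over 8 pairs 0.267) and by -0.24 without WT replicate 2. Hk2 was thus lower relative to Hk1 in all Plxnb1-/- cultures, though WT replicate 1 was almost level with Plxnb1-/- replicate 1.

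The ratio of Slc2a3 to Slc2a1 in CPM per kb was 0.150, 0.125 and 0.126 in WT and 0.150, 0.166 and 0.174 in Plxnb1-/-. The mean log2 ratio was higher by 0.30 (exact permutation p = 0.1, adjusted 0.267) and by 0.25 without WT replicate 2. Aldoc to Aldoa also did not overlap, at a difference of -0.20 with the same p-values, but at the low level of Aldoc. For Eno2 to Eno1 (0.35), Epas1 to Hif1a (0.28), Ldhb to Ldha (0.19), Pfkp to Pfkl (-0.20) and Slc16a3 to Slc16a1 (-0.24) the groups overlapped, with exact permutation p between 0.2 and 0.3. No pair passed a threshold of 0.05, which this design does not allow.

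**Figure D5:**
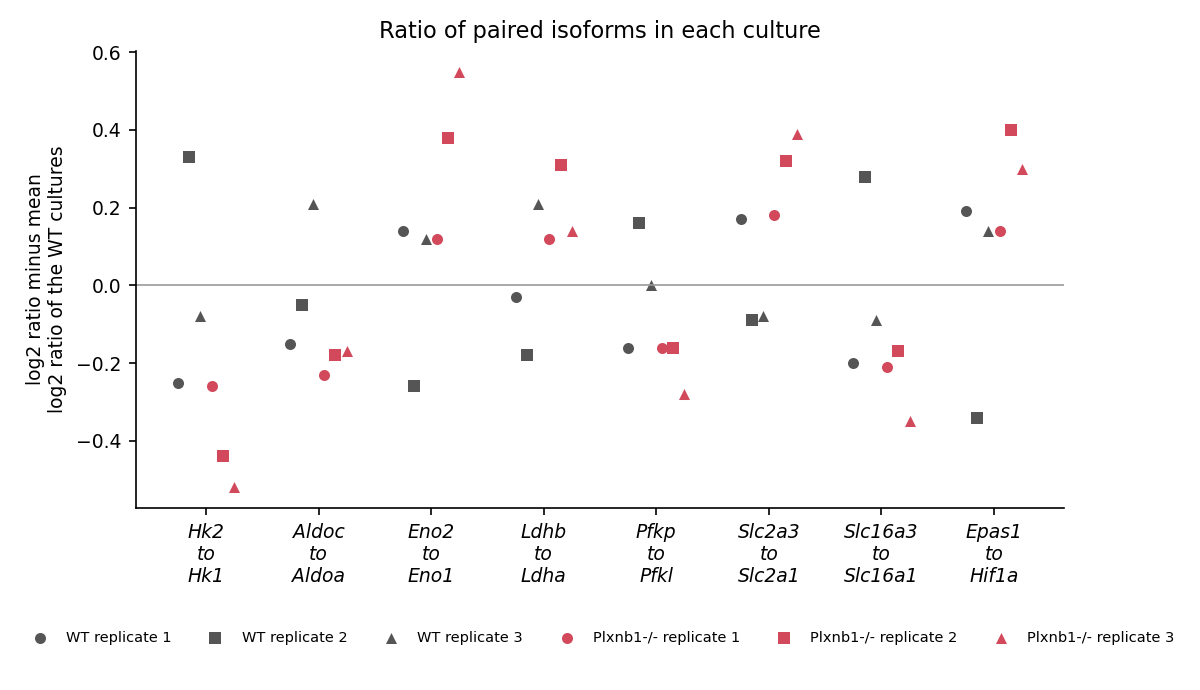
Log2 ratio of paired isoforms in each culture, minus the mean log2 ratio of the WT cultures, for 8 pairs. Grey symbols are WT and red symbols Plxnb1-/- cultures. The ratio of Hk2 to Hk1 lies lower and that of Slc2a3 to Slc2a1 higher in all 3 Plxnb1-/- cultures than in any WT culture, by -0.40 and 0.30 on average.

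Other genes of the same pathways were listed by function and read beside the members. Of 18 further glycolysis genes 14 could be tested and none was called by edgeR. DESeq2 called Fbp1, the fructose bisphosphatase that runs opposite to phosphofructokinase, at 7.05, 6.10 and 7.51 CPM in WT and 9.67, 8.71 and 9.29 CPM in Plxnb1-/- (log2 fold change 0.42, DESeq2 adjusted p = 0.0140, edgeR adjusted p = 0.266). Without WT replicate 2 the DESeq2 call on Fbp1 was lost (0.34, adjusted p = 0.119). In this list Adpgk, an ADP-dependent glucokinase, was lower without overlap (log2 fold change -0.10). So was Tigar, which lowers the activator made by Pfkfb3 (-0.14). The genotypes did not overlap in 3 of the 14 tested genes (21.4%), against 19.7% of all genes. The 7 genes of the pentose phosphate pathway lay between -0.09 and 0.12, all with overlapping groups. Of 13 genes that bring pyruvate into the mitochondrion or use it there, none was called by either tool. The subunits of the mitochondrial pyruvate carrier did not overlap between genotypes, at 0.05 for Mpc1 and -0.07 for Mpc2. They were the only 2 of the 13 without overlap (15.4%, against 19.7% of all genes).

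Of 11 further genes of the HIF machinery, none was called. Eloc, an elongin subunit of the ubiquitin ligase that removes HIF, was lower without overlap (-0.17, edgeR adjusted p = 0.289). Eloc alone of the 11 did not overlap (9.09%, against 19.7% of all genes). Of 30 further HIF targets 29 could be tested, and 22 of these (75.9%) had a negative log2 fold change, compared with 48.5% of all genes. Their median was -0.12, and -0.05 without WT replicate 2. This list was chosen with earlier results of these data known, among them the reduced Vegfa that the paper reports. The share of negative values is therefore a description only. The groups did not overlap in 7 of the 29, with 6 lower (20.7%, compared with 10.4% of all genes) and Car12, a carbonic anhydrase, higher by 0.16. DESeq2 called 2 of them, Vegfa, the angiogenic growth factor (-0.45, adjusted p = 0.0194), and Loxl2, an enzyme that crosslinks collagen (-0.36, adjusted p = 0.0260). By edgeR the adjusted p was 0.273 for both. Neither passed in DESeq2 without WT replicate 2, at -0.33 (adjusted p = 0.630) and -0.24 (adjusted p = 0.0773). Stc2, a secreted glycoprotein, had the largest difference of the list, at 4.91, 7.47 and 3.97 CPM in WT and 3.76, 3.49 and 3.06 CPM in Plxnb1-/- (-0.66, edgeR adjusted p = 0.291). WT replicate 2 was the highest culture, and without it the log2 fold change of Stc2 was -0.36 (edgeR adjusted p = 0.502).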

How the data were processed

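The authors trimmed the reads with Trim Galore 0.6.5, aligned them with Bowtie2 2.4.1 to mm10, removed duplicates with SAMtools 1.10 and counted reads per gene on GENCODE exons with featureCounts. Bowtie2 does not split reads over introns, so short-exon genes can lose counts. The deposited counts per gene were used for every main result, and the deposited FPKM values, normalized by the authors, only in alternatives. Members were matched by Ensembl identifier to GENCODE vM21 symbols (55141 of 55401 genes matched). Exon lengths, exon overlaps and near-identical copies were also taken from vM21. According to the paper, the counts were made on a later GENCODE release, so levels per kb combine 2 releases. Aldoa has 2 identifiers, and the one with the longer exons was used.

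Genes with 2 or more counts in 5 or more of 6 libraries were scaled by TMM and tested with edgeR 4.0.16 (quasi-likelihood F test, genotype as the sole term, Benjamini-Hochberg over 22318 genes), in R 4.3.3. Genes were called where the adjusted p was under 0.05 and the log2 fold change beyond 0.25 in either direction. DESeq2 1.42.0 and limma 3.58.1 served as alternatives, with other scalings, no filter, a replicate block, summed copies and each library left out. The DESeq2 fits without 1 library were added after seeing the data. The main script was tested on simulated data. Near-identical copies were transcripts with at least 90% identity over 80% of the copy (BLAST 2.17.0). The 6 libraries were grouped by labelled genotype and none was dropped. Intervals are 95%, and depth limits cover counting error only. The members and the lists of other pathway genes and markers were chosen with earlier results of these data known. All 36 members were named, and from the other pathway lists those called by edgeR or DESeq2 plus up to 3 rises and 3 falls per list, by fold change, among genes of at least 1 CPM without overlap.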

Additional observations from a re-analysis of the deposited data

How the results depend on the processing

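The members were recomputed under 24 other settings, giving 864 values, of which 5 became called, all in DESeq2 fits with 1 library left out. DESeq2 without WT replicate 1 called 1 member higher (Ndrg1) and 3 lower (Hk2, Pfkp and Mif). DESeq2 without Plxnb1-/- replicate 1 called 1 higher (Eno2). The log2 fold changes of these 5 were, in this order, 0.28, -0.44, -0.33, -0.31 and 0.36. The sign changed in 43 values of 8 members (Aldoa, Ddit4, Egln3, Gpi1, Higd1a, Ldha, Pfkfb3 and Pgk1), none with a log2 fold change beyond 0.09, and the other 28 kept theirs. Members without overlap, 4 higher and 6 lower, became 2 higher under upper-quartile scaling. With 1 library left out there are fewer values to overlap. Higher ones then ran from 4 to 9 (7 without WT replicate 1, 9 without Plxnb1-/- replicate 1). Lower ones ran from 6 to 15 (15 without WT replicate 3). Shares over all genes were not counted under these settings, so the recounts describe nothing particular to the members. The count of all genes called by edgeR, 1 higher and 7 lower, became 120 and 176 without the filter on low counts, 154 and 181 in DESeq2, 0 and 4 in limma on log2(FPKM + 0.1), and 0 and 3 on log2(FPKM + 1). With the replicate block it became 0 higher and 5 lower, and no member was called, while same-numbered libraries did not deviate together (correlations -0.0218, 0.00782 and 0.0653). Without 1 library edgeR called 0 to 8 higher and 4 to 17 lower, and DESeq2 called 493, 72 and 83 higher and 453, 90 and 136 lower without WT replicates 1, 2 and 3, and 144, 46 and 16 higher and 137, 78 and 35 lower without Plxnb1-/- replicates 1, 2 and 3. The cause of these differences was not tested. In the least abundant members the 95% intervals were wide, from -0.42 to 0.59 for Egln3, -0.95 to -0.01 for Ankrd37, just under 0.00 to 1.13 for Adm and -0.50 to 0.11 for Aldoc.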

Other observations

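Aldoa has a second entry in the count table, a gene model just upstream on the same strand, which was read at 1.53, 0.991 and 1.07 CPM in WT and at 1.42, 1.24 and 1.69 CPM in Plxnb1-/- cultures (log2 fold change 0.27, SE 0.20). Exons of other annotated genes share bases with several members. An unconfirmed transcript, Gm49759, covers 15.34% of the exon bases of Pkm on the same strand. On the opposite strand Lrp2bp covers 22.68% of Ankrd37, Gm47112 covers 22.47% of Higd1a and Gm45507 covers 22.25% of Bnip3. Of the members, Pkm and Higd1a lie on chromosome 9 with Plxnb1, 49.4 and 12.7 Mb from it.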
